A study of Mus musculus with 7 samples.

Results

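The genes described here are 10 genes of the Hippo pathway and its transcription factors: Yap1 and Wwtr1 (the co-activators YAP and TAZ), Tead1, Tead2, Tead3 and Tead4, the angiomotin-like genes Amotl1 and Amotl2, and the kinase genes Lats1 and Lats2. They were chosen by name, and all 10 were measured among the 17096 genes of the array table, each by the probe set with the highest mean intensity. Expression was measured on Affymetrix arrays in sorted mouse mammary cells of 3 kinds. The embryonic group held 3 arrays of CD49fHi Lgr5Hi cells from Lgr5-IRES-GFP female embryos at embryonic day 14, with 2000, 2000 and 813 cells. Their titles call them biological replicates. They are given as pooled female embryos of 1 litter without saying whether the litters of the 3 arrays differed. For the adult mice, the sources used here state no age. The adult luminal group held 2 arrays of YFP+ cells from K8CREERT2/RosaYFP mice, and the adult basal group 2 arrays of YFP+ cells from K5CREERT2/RosaYFP mice, both 8 weeks after tamoxifen. In these mice a tamoxifen-activated Cre driven by the keratin 8 or the keratin 5 promoter switches on YFP for good, so the label follows the cells in which that promoter was active at the time of tamoxifen and their descendants. Both adult groups carry CreERT2, the Rosa YFP reporter and tamoxifen exposure. Both are given as analysed again from earlier work. Separate animals are not stated for the adult arrays, and p-values therefore cover the spread between these arrays alone, which may be technical.

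In the Hippo pathway, the kinases encoded by Stk3 and Stk4, with the scaffold Sav1, activate the kinases Lats1 and Lats2. These phosphorylate Yap1 and Wwtr1 and hold them in the cytoplasm. Unphosphorylated Yap1 and Wwtr1 enter the nucleus, where they have no DNA-binding domain of their own and act through the Tead factors. Angiomotin-like proteins bind Yap1 and Wwtr1 at junctions and the cytoskeleton. The pathway acts largely on protein phosphorylation and location, which arrays do not measure. In the mammary gland, Yap1 and Wwtr1 are known for roles in the basal layer and in regeneration.

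Adult luminal and basal arrays matched their labels in the direction of every measured basal and luminal marker, though 4 luminal markers did not pass. All 9 measured basal markers changed and were higher in basal cells, with a luminal minus basal difference in log2 intensity of -2.75 for Krt5 (SE 0.18, 2 arrays in each group, limma adjusted p = 0.00247) and Trp63 at -2.77 ± 0.18. All 11 measured luminal markers were higher in luminal cells by mean level, and 7 of them changed, among them Krt19 (1.18 ± 0.12). Krt8, the gene of the luminal driver, had 0.40 ± 0.12 and did not pass (limma adjusted p = 0.0750). A gene was counted as changed when the Benjamini-Hochberg adjusted p of limma over all genes was under 0.05 and the difference was at least 2-fold. In the embryonic columns, values were identical in replicates 1 and 2 for 37.6% of probe sets, against at most 0.209% between adult arrays, and over probe sets the SD of embryonic minus adult means was 0.09, where that of luminal minus basal means was 0.49. The main comparison was therefore fitted on the 4 adult arrays alone. The background level, 5.94 in log2 intensity, was set so that 95% of 87 probe sets for 71 genes specific to other organs lay under it. With so few arrays, precision is limited throughout.

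Tead2 was the member that changed between the adult lineages, and it was higher in luminal cells. In bulk samples such as these, more cells of a type and more RNA per cell cannot be told apart. The co-activator genes Yap1 and Wwtr1 and the angiomotin-like gene Amotl1 were lower in luminal cells with an adjusted p under 0.05 but by less than 2-fold. Tead4 was higher in luminal cells on the same terms, near the background level. In all, 1 of 10 members changed, where 6.81% of the 17096 genes did, and 5 of 10 had an adjusted p under 0.05, where 16.8% of all genes did, and 6 of 10 had an unadjusted p under 0.05, where 31.6% did. Of the 5 past the adjusted p, Tead2 and Tead4 were higher in luminal cells and Yap1, Wwtr1 and Amotl1 in basal cells. These shares of all genes include many dim genes. With only genes above the background level tested, 4 of 9 members had an adjusted p under 0.05, where 33.2% of 7911 genes did. In that fit 1 of 9 members changed, where 12% of the genes did. The arrays of the 2 lineages did not overlap for 7 of 10 members, a share near the 59.2% of all genes. The median difference of the members was -0.22, against 0.02 for all genes.

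**Figure D1:**
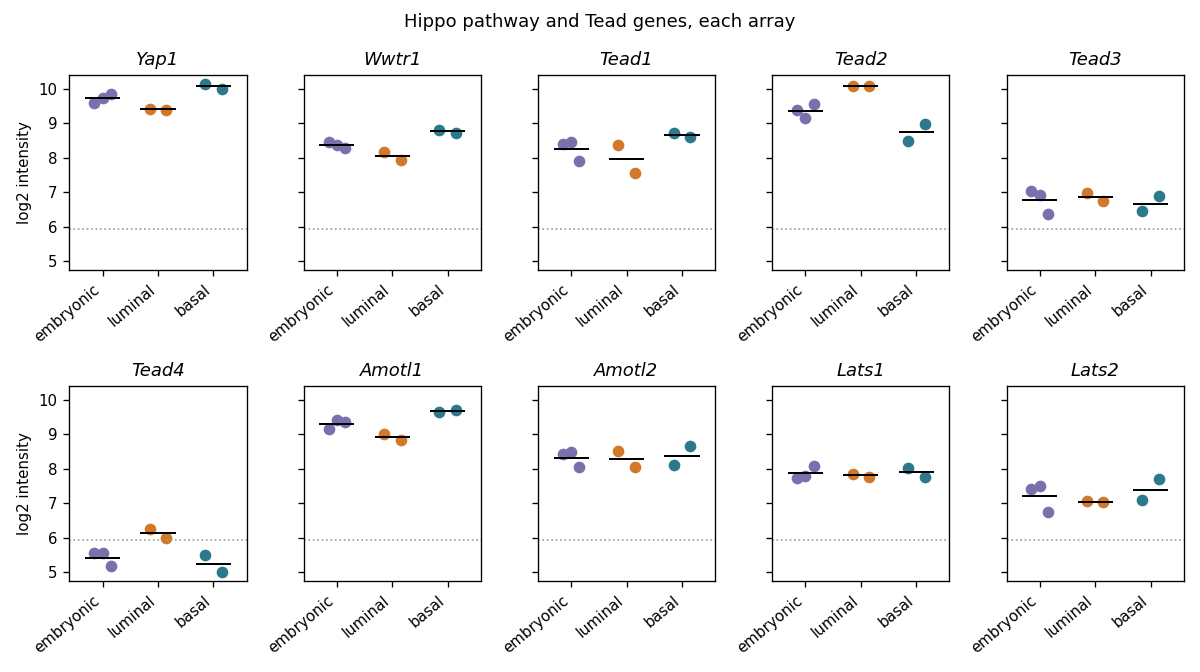
Log2 intensity of the 10 genes on each of the 7 arrays (points) in embryonic, luminal and basal cells, with group means (black bars) and the background level of 5.94 (dotted line). Tead2 is at 10.10 and 10.09 on the luminal arrays, above both basal arrays, while Yap1, Wwtr1 and Amotl1 are lowest on the luminal arrays.

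Among the co-activators, Yap1 had log2 intensities of 9.42 and 9.40 on the luminal arrays, against 10.154 and 10.001 on the basal arrays. The luminal arrays were nearly equal and both lay below the basal ones. The difference was -0.67 ± 0.12 (SE, n = 2 and 2, limma adjusted p = 0.0218), which is 1.59-fold lower in luminal cells. Wwtr1 had 8.18 and 7.94 on the luminal arrays, against 8.81 and 8.72 on the basal arrays, again without overlap. Its difference of -0.71 ± 0.14 (limma adjusted p = 0.0253) was 1.63-fold lower in luminal cells. Both genes had more than 1 probe set, and each of these pointed the same way: both Yap1 probe sets (-0.72 and -0.67) and all 3 Wwtr1 probe sets (-0.71 to -0.44) were lower in luminal cells. Yap1 and Wwtr1 moved by a like amount, since the log2 value of Yap1 minus that of Wwtr1 within an array averaged 1.35 ± 0.16 in luminal and 1.31 ± 0.05 in basal cells (SD, n = 2 each), with overlapping arrays.

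The 4 Tead genes encode the DNA-binding partners, and of these Tead2 and Tead4 had an adjusted p under 0.05, both higher in luminal cells. Tead2, known in mice for expression in the early embryo, had log2 intensities of 10.10 and 10.09 on the luminal arrays (intensities of 1098 and 1091), against 8.487 and 8.997 on the basal arrays (359 and 511). The luminal arrays were nearly equal, and both basal arrays lay well below them and apart from each other. Tead2 had only 1 probe set, so its values could not be compared with those of another. The difference was 1.35 ± 0.19 (SE, n = 2 and 2, limma adjusted p = 0.0109), or 2.56-fold higher in luminal cells, with a 95% interval of 0.88 to 1.83. Without luminal replicate 1 it was 1.35 (limma adjusted p = 0.0748) and without luminal replicate 2 it was 1.36 (limma adjusted p = 0.0634), so its call needed both luminal arrays.

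Tead1, expressed in many tissues, had 8.37 and 7.57 on the luminal arrays, against 8.74 and 8.60 on the basal arrays. The luminal arrays were far apart, and only replicate 2 lay well below the basal arrays. The difference was -0.69 ± 0.27 (limma adjusted p = 0.141), which did not pass, and it was -1.09 without luminal replicate 1 and -0.29 without luminal replicate 2. Tead3 had 6.99 and 6.75 on the luminal arrays and 6.45 and 6.89 on the basal arrays, which overlapped. At 0.21 ± 0.19 (limma adjusted p = 0.536) Tead3 did not pass, with a 95% interval of -0.26 to 0.67.

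Tead4 was dim, with 6.26 and 5.99 on the luminal arrays, against 5.491 and 4.997 on the basal arrays. The luminal arrays lay just above the background level and the basal arrays below it. The fitted difference of 0.88 ± 0.20 had a limma adjusted p = 0.0392, but its size is not exact: set against the background level, the luminal mean was at least 1.14-fold higher. The other Tead4 probe set lay below the background level on every array and differed by 0.86. When genes whose mean lay below the background level were left out, Tead4 was not tested.

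Ratios on the same array were set side by side for pairs of members. The log2 value of Tead2 minus that of Tead1 was 1.73 and 2.52 on the luminal arrays, against -0.25 and 0.40 on the basal arrays. Its mean was 2.12 ± 0.56 in luminal and 0.08 ± 0.46 in basal cells (SD, n = 2 each), a difference of 2.05 in which Tead1 by itself did not pass. Tead2 minus Tead4 averaged 3.97 in luminal and 3.50 in basal cells, a difference of 0.47 with overlapping arrays. Tead2 minus Yap1 was 0.68 and 0.69 on the luminal arrays, against -1.667 and -1.004 on the basal arrays, a difference of 2.02. These ratios do not depend on the scaling between arrays. Their value on 1 array says nothing of which transcript was more abundant, since probe sets differ in brightness. With 2 arrays against 2, an exact two-sided permutation test cannot give a p below 0.333.

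**Figure D2:**
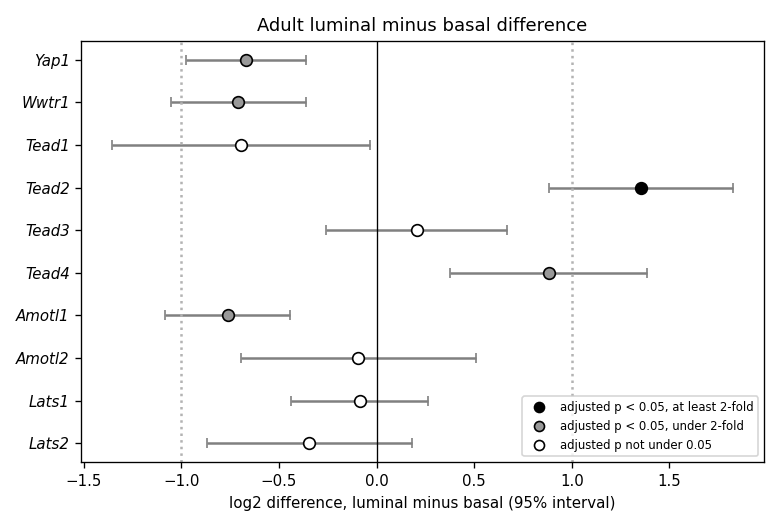
Log2 difference, luminal minus basal, of each of the 10 genes in the fit of the 4 adult arrays, with 95% intervals (bars) and dotted lines at 2-fold. Tead2, at 1.35, is the black point; the grey points Yap1, Wwtr1, Tead4 and Amotl1 had an adjusted p under 0.05 and lie inside the dotted lines.

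Of the 2 angiomotin-like genes, only Amotl1 had an adjusted p under 0.05. Amotl1 had log2 intensities of 9.005 and 8.83 on the luminal arrays, against 9.64 and 9.72 on the basal arrays, without overlap. The difference was -0.76 ± 0.13 (SE, n = 2 and 2, limma adjusted p = 0.0175), or 1.70-fold lower in luminal cells, and its 3 probe sets ran from -0.87 to -0.60. Amotl2, known as a target as well as an inhibitor of Yap1, had 8.52 and 8.04 on the luminal arrays and 8.10 and 8.65 on the basal arrays. Its arrays overlapped, and the difference was -0.09 ± 0.24 (limma adjusted p = 0.856), which did not pass. The 95% interval of -0.70 to 0.51 leaves room for differences in either direction. It overlaps that of Amotl1 (-1.08 to -0.44), and whether the 2 genes differ from each other was not tested.

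Neither Lats kinase gene passed. Lats1 had 7.86 and 7.76 on the luminal arrays and 8.02 and 7.77 on the basal arrays, which overlapped. The difference was -0.09 ± 0.14 (limma adjusted p = 0.752), with a 95% interval of -0.44 to 0.26, and its other probe set gave 0.14. Lats2, which is also a feedback target of Yap1 and Tead, had 7.06 and 7.04 on the luminal arrays and 7.09 and 7.69 on the basal arrays. Basal replicate 1 was thus close to the luminal arrays and replicate 2 stood above them. The difference was -0.34 ± 0.21 (limma adjusted p = 0.342), which did not pass. Without basal replicate 1 it was -0.64 (limma adjusted p = 0.0403) and without basal replicate 2 it was -0.05 (limma adjusted p = 0.888). All 5 Lats2 probe sets were lower in luminal cells, by -0.56 to -0.10, but 3 of them lay below the background level by their mean.

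Every call on the members rested on both luminal arrays, and those of Yap1, Wwtr1 and Tead4 on a basal array as well. With luminal replicate 1 or luminal replicate 2 left out, 0 of 10 members had a limma adjusted p under 0.05, while 6 and 5 had an unadjusted p under 0.05. The share of all genes with an adjusted p under 0.05 was 3.04% and 4.89% in these fits. Without basal replicate 1 or basal replicate 2, 4 of 10 members had an adjusted p under 0.05, and 14.9% and 19.6% of all genes did. The 4 were not the same genes: Tead2, Tead4, Amotl1 and Lats2 without basal replicate 1, where Yap1 (limma adjusted p = 0.0513) and Wwtr1 (limma adjusted p = 0.0537) did not pass, and Yap1, Wwtr1, Tead2 and Amotl1 without basal replicate 2, where Tead4 (limma adjusted p = 0.0567) did not. Without basal replicate 1, both Tead2 and Tead4 changed. Over the 4 fits the difference of Tead2 ran from 1.10 to 1.61, that of Tead4 from 0.63 to 1.13, that of Yap1 from -0.75 to -0.59, that of Wwtr1 from -0.83 to -0.58 and that of Amotl1 from -0.85 to -0.67. A group reduced to 1 array in such a fit was assumed to vary like the other.

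**Figure D3:**
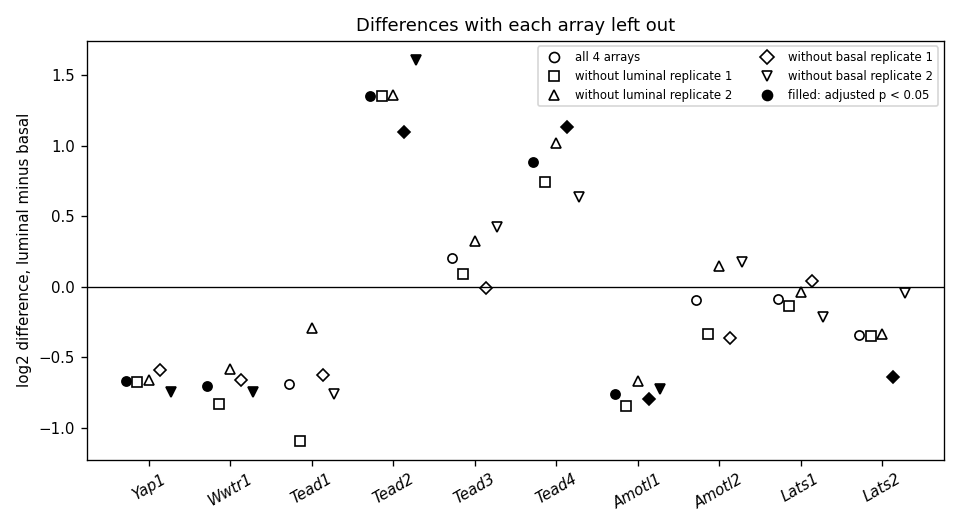
Log2 difference, luminal minus basal, of each gene with all 4 adult arrays (circles) and with each array left out (other symbols); filled symbols had an adjusted p under 0.05. Tead2 stays between 1.10 and 1.61, and Amotl2 and Lats1 lie on both sides of 0.

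By mean level, 10 of 12 fibroblast markers and all 12 endothelial markers were higher in basal cells, though few of them changed. Of 12 fibroblast markers 2 changed, both higher in basal cells (median -0.83), and 8 lay above the background level in an adult group. Their summed intensity was 2720 and 4461 on the luminal arrays, against 6218 and 7589 on the basal arrays. Of 12 endothelial markers 2 changed, both higher in basal cells (median -1.26), with sums of 455 to 792 on the luminal arrays, against 1133 to 1814 on the basal arrays. These counts moved with single arrays, to 0 endothelial markers without luminal replicate 1, 8 without basal replicate 1 and 6 fibroblast markers without luminal replicate 2. They moved with the settings too, and with the replicate block 7 endothelial, 4 fibroblast and 1 pericyte marker changed. None of 5 pericyte markers changed in limma (median -0.63), while 4 had an unadjusted p under 0.05, of which Rgs5, Pdgfrb and Kcnj8 were lower and Notch3 higher in luminal cells. The sums of the 5 pericyte markers were 676 and 771 on the luminal arrays and 570 and 852 on the basal arrays. Notch3 was the brightest of the 5 on every adult array. It was at 8.97 and 9.02 in log2 intensity on the luminal arrays, against 8.03 and 8.58 on the basal arrays. Notch3 thus weighed most in these sums, which do not show that the other 4 were level. By mean level those 4 were higher in basal cells. None of 9 leukocyte markers changed (median -0.25, 2 with an unadjusted p under 0.05), with sums of 278 and 491 on the luminal arrays and 495 and 627 on the basal arrays. Ptprc, which marks all leukocytes, was at 2.96 in luminal and 3.04 in basal cells, below the background level, while 3 of the 9 lay above it in an adult group: Cd74 at 6.69 in luminal and 7.49 in basal cells, Lyz2 at 5.08 in luminal and 6.68 in basal cells, and Fcer1g at 5.91 in luminal and 6.46 in basal cells. Yap1, Wwtr1 and Tead1 are also expressed in fibroblasts and endothelium. The part of such cells was not tested for these genes, for Amotl1 or for the other pathway genes given below as lower in luminal cells.

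Other genes of the pathway were described by 4 lists, and 12 of their 69 measured genes changed, 4 higher in luminal cells (3.57% of all genes) and 8 higher in basal cells (3.24% of all genes). The count was 7 without luminal replicate 1 and 3 when 50 was added to the intensities. With dim genes left out the count was 8, where 12% of all genes tested changed. In the kinase core, 0 of 14 genes changed in limma, where 6.81% of all genes did (median 0.09). An unadjusted p under 0.05 was found for 5 of the 14, a share near the 31.6% of all genes. Stk4, which encodes the kinase MST1, had a difference of 0.44 ± 0.19, and the scaffold gene Sav1 one of 0.38 ± 0.16, and neither passed.

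Upstream regulators changed in both directions. Of 26 such genes 4 changed, 2 in each direction (median 0.095), where 6.81% of all genes changed. Ptpn14, a phosphatase that binds Yap1 and holds it in the cytoplasm, had log2 intensities of 6.78 and 6.73 on the luminal arrays, against 8.91 and 9.28 on the basal arrays. It was far lower on both luminal arrays, with a difference of -2.34 ± 0.16 (SE, n = 2 and 2, limma adjusted p = 0.00247), and it changed in each of 13 alternatives. Frmd6, a FERM domain gene linked to Hippo activation, had 7.11 and 6.63 on the luminal arrays, against 8.23 and 7.92 on the basal arrays (-1.20 ± 0.20, limma adjusted p = 0.0175), and did not pass without luminal replicate 2 (limma adjusted p = 0.0760). Crb3, an apical polarity gene, had 8.82 and 8.80 on the luminal arrays, against 7.69 and 7.64 on the basal arrays. The groups were far apart, with a difference of 1.14 ± 0.12 (limma adjusted p = 0.00519). Rassf6 was also higher in luminal cells (1.78 ± 0.15), with both groups below the background level at means of 5.68 and 3.90. With 50 added to the intensities, Frmd6, Crb3 and Rassf6 were not called. Nf2, the gene of the tumour suppressor merlin, had a difference of 0.06 ± 0.15 and did not pass, and Wwc1, the KIBRA gene, had 0.58 ± 0.15, with a limma adjusted p = 0.0479 but under 2-fold.

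Among Tead cofactors and target genes, changes ran in both directions. Of 8 cofactor genes Vgll3 changed, lower in luminal cells (-1.05 ± 0.23), with both groups below the background level and no call without luminal replicate 1 or basal replicate 2 (limma adjusted p up to 0.133) or with the mean of its probe sets. Vgll1 (0.05) and Vgll2 (0.09) did not pass, and lay below the background level too (list median -0.17). Of 21 measured Yap1 and Tead target genes 5 changed lower and 2 higher in luminal cells (list median -0.09), where 3.24% and 3.57% of all genes did. The count of changed targets was smaller without luminal replicate 1. Igfbp3, a secreted binder of insulin-like growth factors, had 6.39 and 7.54 on the luminal arrays, against 10.66 and 10.52 on the basal arrays (-3.62 ± 0.36, limma adjusted p = 0.00489). Fjx1, a secreted or Golgi protein gene of the Fat and Dachsous system, had 5.99 and 6.35 on the luminal arrays, against 8.09 and 8.26 on the basal arrays (-2.00 ± 0.17). Both of these genes were separated widely and changed in each of 13 alternatives.

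The matricellular gene pair most often read as Yap1 targets differed from each other. Ccn2, the connective tissue growth factor gene, had 4.49 and 4.56 on the luminal arrays, against 5.98 and 6.64 on the basal arrays. The luminal arrays were below the background level, so its basal mean was at least 1.30-fold higher, and its fitted difference of -1.78 ± 0.23 was not called without either luminal array (limma adjusted p up to 0.0652). Ccn1, the Cyr61 gene, had 10.79 and 10.44 on the luminal arrays and 10.30 and 10.49 on the basal arrays. Its arrays overlapped, and at 0.22 ± 0.17 (limma adjusted p = 0.444) it did not pass. Ankrd1 (-0.33 ± 0.13) did not pass and was dimmer than background in either group. Nt5e, the CD73 gene, was lower in luminal cells (-1.09 ± 0.15). Its luminal arrays were below the background level, so its basal mean was at least 1.70-fold higher than the luminal mean. It was not called without luminal replicate 1, where the difference stayed negative, with all 7 arrays in the fit or with the mean of its probe sets. Birc5 (1.17 ± 0.15, or at least 2.04-fold higher, since its basal arrays were below the background level) and Anln (1.05 ± 0.14), the targets higher in luminal cells, are also genes of mitosis and cell division. Birc5 was not called with 50 added to the intensities. Anln was dimmer than background in either group and was not called without luminal replicate 1 (limma adjusted p = 0.0669) or with the mean of its probe sets.

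**Figure D4:**
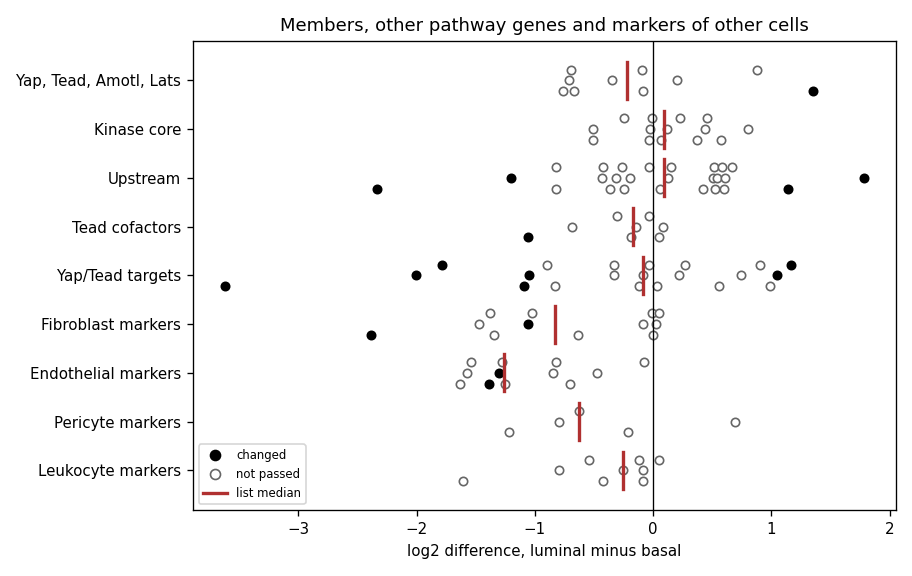
Log2 difference, luminal minus basal, of the 10 genes, of 4 lists of other pathway genes and of markers of 4 other cell types (points, filled where changed), with list medians (red bars). Pathway lists have medians from -0.17 to 0.095, while fibroblast and endothelial markers have medians of -0.83 and -1.26.

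Promoter sequences were examined because Yap1 and Tead factors regulate some genes of their own pathway. RefSeq windows of build GRCm38.p6, from 250 bases before to 50 bases after the annotated start, were matched by symbol for 8 of the 10 members. They were searched on both strands for the Tead core motif GGAATG or its reverse complement CATTCC, whose letters do not overlap another motif searched. The windows are shown for the changed member and for the 3 other members above the background level with an adjusted p under 0.05, together with Ptpn14 and Ccn1. They read 5′ to 3′ on the gene's strand, with the motif in capitals. They lie at chr7:45215542-45215841 on the plus strand for Tead2, at chr9:8004547-8004846 on the minus strand for Yap1, at chr3:57575861-57576160 on the minus strand for Wwtr1 (the 5′-most of its starts), at chr9:14614951-14615250 on the minus strand for Amotl1, at chr1:189728018-189728317 on the plus strand for Ptpn14 and at chr3:145649936-145650235 on the minus strand for Ccn1.
Tead2: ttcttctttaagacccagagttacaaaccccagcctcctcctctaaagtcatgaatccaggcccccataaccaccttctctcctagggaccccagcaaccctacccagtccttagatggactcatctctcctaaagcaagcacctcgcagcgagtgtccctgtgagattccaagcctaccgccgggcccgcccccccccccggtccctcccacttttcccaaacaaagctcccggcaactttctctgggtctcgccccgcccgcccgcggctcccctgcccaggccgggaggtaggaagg
Yap1: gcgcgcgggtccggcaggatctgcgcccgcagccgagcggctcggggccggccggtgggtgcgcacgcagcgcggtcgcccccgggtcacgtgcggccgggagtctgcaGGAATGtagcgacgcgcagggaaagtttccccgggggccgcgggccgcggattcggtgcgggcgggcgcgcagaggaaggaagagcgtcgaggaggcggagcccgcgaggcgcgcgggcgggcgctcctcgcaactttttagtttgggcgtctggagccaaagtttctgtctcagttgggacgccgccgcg
Wwtr1: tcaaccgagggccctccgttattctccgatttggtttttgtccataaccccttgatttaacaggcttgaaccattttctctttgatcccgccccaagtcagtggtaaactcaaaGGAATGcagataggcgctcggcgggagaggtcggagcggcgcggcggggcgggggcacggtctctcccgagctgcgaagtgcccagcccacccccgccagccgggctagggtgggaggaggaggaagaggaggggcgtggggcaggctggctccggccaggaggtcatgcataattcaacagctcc
Amotl1: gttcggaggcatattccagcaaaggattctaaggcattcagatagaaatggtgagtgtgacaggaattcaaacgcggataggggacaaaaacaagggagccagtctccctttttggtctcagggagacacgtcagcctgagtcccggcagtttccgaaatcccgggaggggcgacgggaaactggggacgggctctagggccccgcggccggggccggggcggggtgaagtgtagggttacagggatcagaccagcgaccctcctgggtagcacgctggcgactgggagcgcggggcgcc
Ptpn14: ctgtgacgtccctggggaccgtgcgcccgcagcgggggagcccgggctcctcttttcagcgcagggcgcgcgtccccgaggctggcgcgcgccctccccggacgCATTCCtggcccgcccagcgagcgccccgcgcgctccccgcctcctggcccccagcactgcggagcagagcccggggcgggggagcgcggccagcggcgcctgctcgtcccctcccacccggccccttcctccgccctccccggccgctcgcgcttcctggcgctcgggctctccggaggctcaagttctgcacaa
Ccn1: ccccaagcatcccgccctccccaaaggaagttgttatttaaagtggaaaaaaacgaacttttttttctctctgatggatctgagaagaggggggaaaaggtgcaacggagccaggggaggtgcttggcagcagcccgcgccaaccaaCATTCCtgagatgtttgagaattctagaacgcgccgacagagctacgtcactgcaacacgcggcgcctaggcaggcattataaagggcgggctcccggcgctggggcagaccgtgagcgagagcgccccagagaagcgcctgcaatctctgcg

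Of these windows, those of Yap1, Wwtr1, Ptpn14 and Ccn1 held the motif once, at 141, 136, 146 and 103 bases before the start. The Tead2 and Amotl1 windows did not hold these letters, nor did that of Igfbp3, which is not printed. Among all members with a window, 5 of 8 genes (62.5%) had the motif in at least 1 window, against 16.58% of 27025 genes. The members with it were Yap1, Wwtr1, Tead3, Amotl2 and Lats2, of which Yap1 and Wwtr1 were lower in luminal cells and the other 3 did not pass. Ptpn14 and Ccn1 were picked by name from longer lists. Counted by window, 8 of 28 in the upstream list (28.57%) and 4 of 17 in the target list (23.53%) held the motif. The share was 14.66% of all 32851 windows. A match is a string of letters and was not tested as a binding site, and windows of a gene with several starts can overlap. The AP-1 motif TGANTCA was in the windows of 0 of 8 members, against 8.97% of genes.

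The genes most like Tead2 over the 4 adult arrays were Msx2, a homeobox gene, and Shroom2, an actin-binding gene. Of 7684 other genes above the background level, they had the smallest root mean square difference from Tead2 in centred log2 values, at 0.01 and 0.03. Msx2 had a difference, luminal minus basal, of 1.36 ± 0.19 and Shroom2 one of 1.38 ± 0.18.

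In the embryonic columns, every member lay between the adult means. Yap1 had log2 intensities of 9.60, 9.75 and 9.84 on the embryonic arrays, against adult means of 9.41 in luminal and 10.08 in basal cells. Wwtr1 had 8.45, 8.38 and 8.29, and Amotl1 9.14, 9.40 and 9.36. For these 3 genes no embryonic array lay within either adult group. Tead2 had 9.38, 9.16 and 9.58 on the embryonic arrays, below both luminal and above both basal arrays. Tead1 had 8.42, 8.45 and 7.92, and Tead3 7.03, 6.93 and 6.37. Replicate 3, the array of 813 cells, was the lowest of the 3 for Tead1, Tead3, Tead4, Amotl2, Lats2 and Wwtr1. Tead4 had 5.54, 5.54 and 5.18, below the background level, with identical values on replicates 1 and 2. Amotl2 had 8.42, 8.47 and 8.06, Lats1 7.72, 7.79 and 8.09, and Lats2 7.42, 7.50 and 6.74.

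No member changed between embryonic and adult cells in the limma fit of all 7 arrays. Whether the embryonic and adult arrays had been adjusted to each other is not stated, and such an adjustment would by itself leave few calls, so the counts of 0 do not show that the levels were alike. Embryonic minus basal, 0 of 10 members changed (0.0702% of all genes), 0 had an adjusted p under 0.05 (0.076% of all genes) and 4 had an unadjusted p under 0.05 (9.25% of all genes). Embryonic minus luminal, 0 of 10 members changed (0.0234% of all genes), 0 had an adjusted p under 0.05 (0.0351% of all genes) and 5 had an unadjusted p under 0.05 (12% of all genes). The arrays did not overlap for 5 of 10 members against basal cells (26.1% of all genes) and for 5 of 10 against luminal cells (30.8% of all genes). The 2 comparisons share the embryonic arrays. The largest differences were those of Tead2, at 0.63 ± 0.18 against basal cells (SE, n = 3 and 2, limma adjusted p = 0.350) and -0.72 ± 0.18 against luminal cells (n = 3 and 2, limma adjusted p = 0.213). In order of mean level, Tead2, Tead3 and Tead4 ran from luminal through embryonic to basal cells, and the other 7 members from basal through embryonic to luminal cells, but no step next to the embryonic group passed. The position between the adult means was shared by 89.3% of all genes in the table.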

How the data were processed

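RNA of sorted cells was amplified for Affymetrix arrays, per the labels' protocols. The authors deposited probe set intensities on a linear scale. The submitters' processing notes name RMA and affy; settings, and any adjustment between sets of arrays, are not given in the sources used here. Adult samples carry the text of the embryonic protocol in the labels. Since log2 values had been planned for, each deposited intensity was first turned into log2.

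Of 45141 probe sets, 104 controls and 4 empty ones were dropped; 28895 probe sets had 1 gene symbol, 551 several and 15587 none, giving 17096 genes. Gene identifiers matched 28686 of these probe sets, and no symbol changed. The background list held 2 fibrinogen genes that read high; without them the level would be 5.75. Limma 3.58.1 in R 4.3.3 (lmFit, eBayes) fitted the 4 adult arrays (residual degrees of freedom 2, prior 3.73) or all 7 arrays; adjustment ran over all genes. On simulated data for luminal minus basal with 200 of 17096 genes changed, it recovered 70% of differences of 1.5 and 93% of differences of 3, with 5 false calls among 168. Both sizes exceed the largest member difference, 1.35 for Tead2, and recovery at the sizes of the members was not tested. Genes named are the 10 members, up to 4 changed genes per direction and the first 2 not passing in each pathway list, the genes most like a changed member, and defining markers. Members and lists were chosen with earlier results of these data known. Alternatives covered the arrays fitted, probe set choice, normalization, dim genes, an offset, the variance trend, a replicate block, the fold minimum and each array left out. Figures used matplotlib 3.10.9 in Python 3.11.15.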

Additional observations from a re-analysis of the deposited data

How the results depend on the processing

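Between luminal and basal cells 1 of 10 members changed, namely Tead2, with all 7 arrays in the fit and with other probe set choices. Tead2 had only 1 probe set, so those choices left its difference as it was. With dim genes left out, 1 of 9 tested members changed, again Tead2. The count was also 1 of 10 with quantile normalization, with 50 added to the intensity and with a variance trend. It was 5 with no fold minimum and ran from 0 to 2 with an array left out. Of 5 members with an adjusted p under 0.05, a count examined under other settings after seeing the data, 4 or 5 had one under the 8 alternatives that kept all adult arrays, and 0 to 4 with an array left out. Of 129 member differences under alternatives, 6 changed sign, all in members that did not pass. Lats1 was 0.028 with the mean of its probe sets, 0.14 with the probe set of highest variance and -0.21 to 0.039 with an array left out; Amotl2 was -0.36 to 0.18 and Tead3 -0.012 to 0.42 with an array left out. Tead2 lost its call only without luminal replicate 1 or 2, at 1.35 and 1.36, and Tead4 gained one without basal replicate 1. The 12 changed genes of the pathway lists became 3 with 50 added to the intensity, 23 with no fold minimum and 7 to 13 with an array left out. With dim genes left out, 8 of the pathway genes changed, 3 of 20 tested upstream genes and 5 of 16 tested targets, where 12% of all genes tested did. None of 12 kinase core genes and none of 4 cofactors changed there. The share of all genes changed was 2.08% with 50 added to the intensity and 16.8% with no fold minimum. Over all genes, the calls split into 611 toward luminal and 554 toward basal cells, and into 136 and 220 with 50 added to the intensity. The counts of members changed against embryonic cells were 0 under each of 12 alternatives for either adult group. Replicate numbers are shared by the groups but no label says that they pair samples. With the replicate block, 1 of 10 members changed, 5 had an adjusted p under 0.05 and 12 pathway genes changed, as without it; deviations of like-numbered luminal and basal arrays correlated at 0.15 over genes. Probe sets near the background level, Tead4 among them, carry inexact sizes.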

Other observations

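Several other pathway genes had an adjusted p under 0.05 in limma with a difference under 2-fold, luminal minus basal; they were chosen here after their values were seen. Of the 14 kinase core genes these were Strn, a striatin gene of the phosphatase complex that opposes the Hippo kinases (0.80 ± 0.14), and Stk38, a kinase gene related to Lats1 and Lats2 (0.58 ± 0.14). Among upstream genes the LIM-domain genes Ajuba (-0.82 ± 0.17) and Wtip (-0.82 ± 0.12), whose proteins bind Lats kinases, were lower in luminal cells, and the polarity gene Llgl2 (0.60 ± 0.14) was higher. Ajuba lay below the background level on luminal replicate 2, so the size of its difference is inexact. Of the cofactors, Runx1 (-0.69 ± 0.13) was lower in luminal cells. Of the targets, Asap1 (-0.83 ± 0.15) and Crim1 (-0.90 ± 0.15) were lower and Myof (0.75 ± 0.19) and the tissue factor gene F3 (0.90 ± 0.12) higher in luminal cells. F3 lay below the background level in basal cells, so its luminal mean was at least 1.67-fold higher.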
